A study of Arabidopsis thaliana with 12 samples.

Results

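The comparison described here set seedlings of dcp5-1, an Arabidopsis thaliana mutant of the decapping factor gene DCP5, against seedlings of the Col-0 accession after both had spent 60 min in NaCl. It rests on 6 of the 12 mRNA sequencing samples of the study, 3 of each genotype. The 3 dcp5-1 samples of 60 min were 5-d-old mutant seedlings kept for 60 min in liquid 1x MS medium with 150 mM NaCl. The 3 Col-0 samples of 60 min were 5-d-old seedlings with the same salt treatment. The remaining 6 samples, 3 of dcp5-1 and 3 of Col-0 taken at 0 min, served for the variance estimate and for a comparison with the genotype difference before salt. Per the labels, all seeds had 3 days of imbibition at 4 °C, all seedlings grew on MS agar at 22 °C under 16 h light and 8 h dark, and all rested for 30 min in liquid medium before the salt. The samples hold 1 mutant allele and whole seedlings, and the labels do not say whether replicates were separate cultures, and the p-values therefore speak of the spread among these samples alone, which may be technical. In whole seedlings, fewer cells of a type and less RNA per cell cannot be told apart.

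Of the 38088 loci in the deposited table, 19876 averaged 1 FPKM or more over the 12 samples and were compared. FPKM, the authors' unit, counts fragments per kilobase of transcript for a fixed number of mapped fragments. Differences are dcp5-1 minus Col-0 on the log2(FPKM + 1) scale, which understates the change of genes with low values. A gene is called, or said to have risen or fallen, where limma gave it an adjusted p below 0.05. Recovered read numbers put the depth of the 60 min libraries at 19980000 to 21030000 reads, against 14520000 to 18470000 reads at 0 min. The 60 min medians were 229 to 242 reads per gene. These medians cover genes with reads among 10863 longer protein-coding genes with 1 annotated transcript, so genes without reads and shorter genes are not in them. Across nuclear protein-coding genes, replicates of 60 min correlated at r = 0.9857 to 0.9915, and dcp5-1 correlated with Col-0 at r = 0.9605 to 0.9679.

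DCP5 belongs to the LSM14 family of proteins that join the mRNA decapping complex. Removal of the cap by this complex opens an mRNA to 5′ to 3′ degradation, and decapping factors gather in cytoplasmic granules called processing bodies, where mRNAs can also be held untranslated. In seedlings, decapping factors are known for clearing transcripts during germination and early growth and for responses to osmotic stress.

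The DCP5 transcript itself was low in every mutant sample. DCP5 (AT1G26110) had 20.7, 20.2 and 20.6 FPKM in the dcp5-1 samples, against 78.8, 84.9 and 76.6 FPKM in the Col-0 samples. The groups did not overlap, and the mutant mean was 25.6% of the Col-0 mean (log2 difference -1.92, SE 0.047, adjusted p = 5.25e-10 in limma). The transcript was thus reduced and not absent. FPKM sums a whole gene and does not show which part of the transcript was read. The difference was close to that at 0 min (interaction -0.03, SE 0.067, limma adjusted p = 0.751).

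Over all genes, 5394 were higher in dcp5-1 after 60 min in NaCl, which is 27.1% of those tested, and 5437 were lower, 27.4%. The counts of list members at 60 min given below are to be read beside these shares. Counts at 0 min are to be read beside 18.8% of all genes higher and 28.1% lower. The interaction is the difference at 60 min minus that at 0 min, and its counts are to be read beside 16.3% positive and 8.06% negative. Most of the called differences at 60 min were small. The median called difference had a size of 0.41 log2 units, and 239 genes (1.2%) were higher and 243 (1.22%) lower by at least 1 log2 unit. dcp5-1 and Col-0 samples did not overlap for 10638 of the 10831 called genes, and for 12937 of all 19876 genes tested. Absence of overlap was thus also common among genes that were not called, and it is not evidence separate from the calls. Of the genes past 1 log2 unit, 213 of the higher and 214 of the lower ones were nuclear protein-coding genes. These numbers depend on the pseudocount: with 0.1 in place of 1 the numbers past 1 log2 unit were 431 and 450, and with 5 they were 109 and 94.

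**Figure D1:**
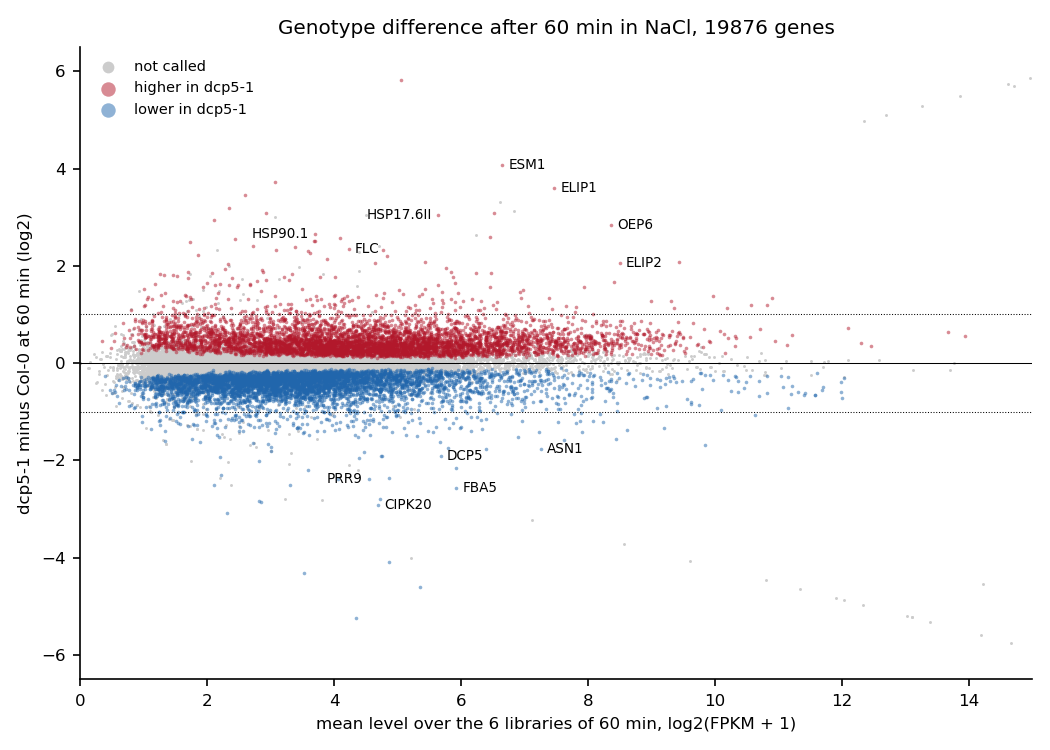
Difference between dcp5-1 and Col-0 at 60 min (log2, vertical axis) against the mean level over the 6 samples of 60 min (log2(FPKM + 1), horizontal axis) for the genes tested, red where called higher in dcp5-1 (5394), blue where called lower (5437) and grey where not called, with dotted lines at 1 log2 unit. ESM1 and ELIP1 stand highest among the labelled genes and CIPK20 lowest; 8 genes lie beyond the axes, and the grey points at the right with large differences are loci whose samples mix values of 0 with high ones.

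The 12 genes with a symbol raised furthest in dcp5-1 at 60 min included ESM1, both ELIP genes and 4 chaperones. ESM1 (AT3G14210), a modifier that steers the breakdown products of glucosinolates, had 188, 188 and 189 FPKM in dcp5-1, against 10.6, 9.90 and 10.0 FPKM in Col-0 (log2 difference 4.08, SE 0.076, adjusted p = 1.16e-10 in limma). It stood 18.5-fold higher in the mutant. ELIP1 (AT3G22840), an early light-induced protein of thylakoids that protects against excess light, had 308, 336 and 334 FPKM in dcp5-1, against 22.9, 31.2 and 24.6 FPKM in Col-0 (log2 difference 3.60, SE 0.12, adjusted p = 3.08e-09 in limma). Its relative ELIP2 (AT4G14690) had 572, 581 and 590.5 FPKM in dcp5-1, against 145, 143 and 130.5 FPKM in Col-0 (log2 difference 2.05, SE 0.092, adjusted p = 3.11e-08 in limma). For all of these genes the lowest mutant sample lay above the highest Col-0 sample, which the choice of the genes required. OEP6 (AT3G63160), annotated as an outer envelope membrane protein, had 578, 568 and 591 FPKM in dcp5-1, against 76.7, 87.3 and 77.6 FPKM in Col-0 (log2 difference 2.83, SE 0.11, adjusted p = 1.21e-08 in limma).

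Regulators of flowering and growth and small secreted proteins made up the rest of the 12 largest rises besides the chaperones. FLC (AT5G10140), a MADS-box repressor of flowering, had 27.5, 30.6 and 32.8 FPKM in dcp5-1, against 4.73, 5.56 and 5.26 FPKM in Col-0 (log2 difference 2.34, SE 0.079, adjusted p = 4.08e-09 in limma). ARGOS (AT3G59900), an auxin-induced gene that enlarges organs, had 44.1, 44.6 and 44.4 FPKM in dcp5-1, against 7.86, 9.34 and 7.03 FPKM in Col-0 (log2 difference 2.33, SE 0.12, adjusted p = 8.95e-08 in limma). In both, the lowest mutant sample lay far above the highest Col-0 sample, though some separation was required by the choice of the genes. PDF2.1 (AT2G02120), of the plant defensin family, had 12.4, 13.1 and 13.98 FPKM in dcp5-1, against 1.64, 2.00 and 1.89 FPKM in Col-0 (log2 difference 2.32, SE 0.23, adjusted p = 9.25e-06 in limma). GRP9 (AT2G05440), a glycine-rich protein gene, had 1034, 1334 and 1005 FPKM in dcp5-1, against 249, 300.1 and 239.6 FPKM in Col-0 (log2 difference 2.09, SE 0.16, adjusted p = 1.4e-06 in limma). GRP9 has a related gene, AT2G05510, with which reads may be shared, and FLC is overlapped by antisense transcripts, while the strand used in counting is not given in the sources used here.

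The largest falls included a kinase, metabolic enzymes, clock regulators and disease resistance genes. CIPK20 (AT5G45820), a kinase that works with calcineurin B-like calcium sensors, had 5.22, 5.30 and 4.59 FPKM in dcp5-1, against 44.9, 44.4 and 44.6 FPKM in Col-0 (log2 difference -2.92, SE 0.064, adjusted p = 2.61e-10 in limma). CDEF1 (AT4G30140), a cutinase that acts on the cuticle, had 5.56, 6.01 and 5.38 FPKM in dcp5-1, against 44.5, 44.9 and 45.9 FPKM in Col-0 (log2 difference -2.79, SE 0.059, adjusted p = 2.61e-10 in limma). The mutant levels of these genes were 11.3% and 12.5% of the Col-0 means. FBA5 (AT4G26530), a fructose-bisphosphate aldolase, had 16.3, 16.9 and 16.5 FPKM in dcp5-1, against 101, 108 and 97.7 FPKM in Col-0 (log2 difference -2.56, SE 0.11, adjusted p = 1.77e-08 in limma). CYP71B26 (AT3G26290), a cytochrome P450, had 4.15, 4.54 and 4.502 FPKM in dcp5-1, against 27.6, 25.2 and 28.5 FPKM in Col-0 (log2 difference -2.38, SE 0.066, adjusted p = 1.1e-09 in limma). HIS1-3 (AT2G18050), a linker histone induced by drought, had 7.53, 8.16 and 9.92 FPKM in dcp5-1, against 47.3, 46.3 and 49.8 FPKM in Col-0 (log2 difference -2.36, SE 0.11, adjusted p = 3.11e-08 in limma). No sample of one genotype reached into the range of the other for these genes, as the rule that chose them required.

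Enzymes of amino acid metabolism and resistance genes were lower as well. ASN1 (AT3G47340), the asparagine synthetase induced by darkness and low sugar, had 67.2, 70.3 and 67.3 FPKM in dcp5-1, against 239.6, 233 and 232 FPKM in Col-0 (log2 difference -1.77, SE 0.046, adjusted p = 7.8e-10 in limma). MCCA (AT1G03090), a subunit of the mitochondrial enzyme that breaks down leucine, had 25.1, 24.2 and 24.6 FPKM in dcp5-1, against 86.3, 82.6 and 85.9 FPKM in Col-0 (log2 difference -1.75, SE 0.084, adjusted p = 5.7e-08 in limma). Both kept tight replicate values in each genotype. RPP5 (AT4G16950), a receptor for downy mildew, had 9.18, 8.34 and 8.74 FPKM in dcp5-1, against 33.3, 33.2 and 34.5 FPKM in Col-0 (log2 difference -1.83, SE 0.057, adjusted p = 2.78e-09 in limma). RPP4 (AT4G16860), of the same gene cluster, had 2.67, 2.83 and 2.68 FPKM in dcp5-1, against 11.2, 11.5 and 11.5 FPKM in Col-0 (log2 difference -1.73, SE 0.073, adjusted p = 2.01e-08 in limma). The cluster holds near-identical copies between which reads can be split, so the value of each copy is uncertain.

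**Figure D2:**
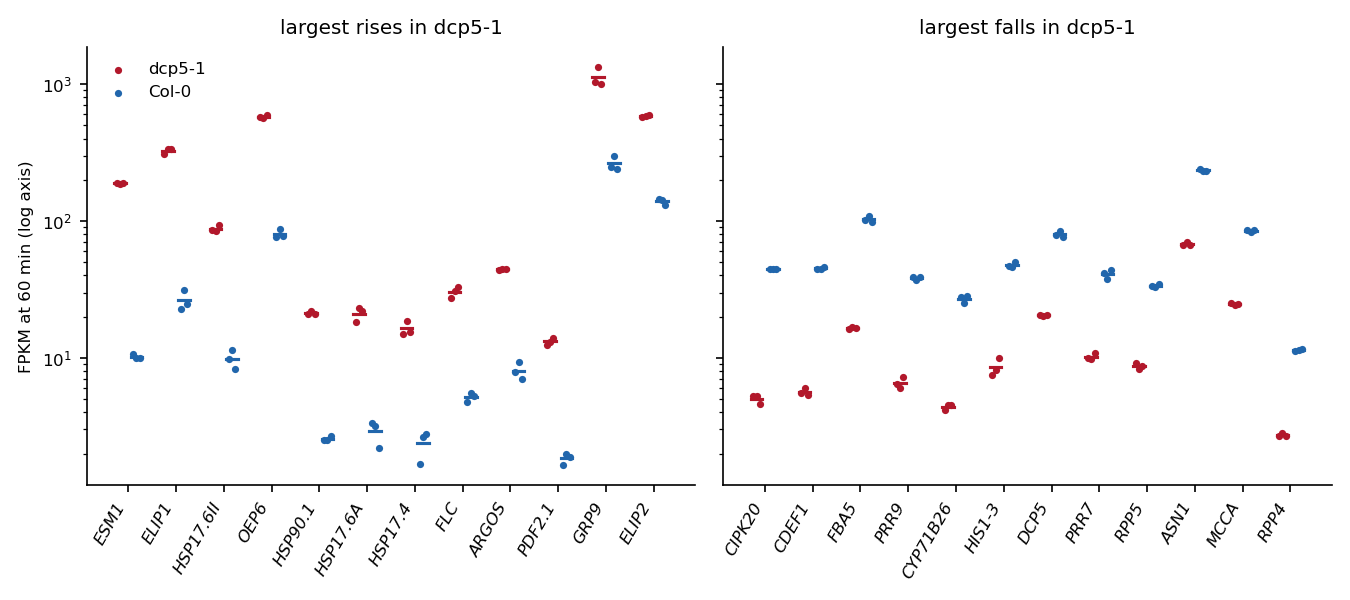
FPKM (log axis) of the 12 genes raised most and the 12 lowered most in dcp5-1 at 60 min, with red points for the 3 dcp5-1 samples, blue points for the 3 Col-0 samples and lines at the means. The samples of the genotypes do not overlap for any of the 24 genes, which the choice of the genes required; ESM1 stands near 188 FPKM in dcp5-1 and near 10 FPKM in Col-0.

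Besides DCP5, the transcripts of the decapping machinery differed by little. Of the 24 genes on the decapping list, DCP5 included, 7 were called higher and 11 lower, with a median log2 difference of -0.13 beside -0.01 for all genes. The higher share, 29.2%, was near the 27.1% of all genes, and the lower share was 45.8% beside 27.4%. The 10 LSM genes, whose products form the ring that binds the end of deadenylated mRNAs, included every member that rose and none that fell. LSM1B had 38.0 ± 3.15 FPKM in dcp5-1 and 24.6 ± 2.25 FPKM in Col-0 (mean ± SD, n = 3 each, as in what follows; log2 difference 0.61, SE 0.083, adjusted p = 9.68e-05 in limma). LSM4 and LSM6A had log2 differences of 0.47 and 0.47 (limma adjusted p = 9.65e-05 and 0.000679). LSM3A, LSM3B, LSM5 and LSM2 were called higher with differences between 0.25 and 0.31, while LSM6B, LSM7 and LSM1A, at 0.20, 0.11 and 0.06, were not.

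The enzymes and scaffolds of decapping lay on the other side. DCP2, the decapping enzyme, had 15.05 ± 0.428 FPKM in dcp5-1 and 19.3 ± 0.778 FPKM in Col-0 (log2 difference -0.34, SE 0.047, adjusted p = 0.000109 in limma). Its scaffold VARICOSE (VCS) had 10.9 ± 0.432 FPKM in dcp5-1 and 15.69 ± 0.462 FPKM in Col-0 (log2 difference -0.48, SE 0.068, adjusted p = 0.000116 in limma), and the related gene VCR was lower too (log2 difference -0.41, SE 0.091, adjusted p = 0.00253 in limma). DCP1, the partner that activates DCP2, was not called (log2 difference -0.14, SE 0.057, adjusted p = 0.0607 in limma), but was called lower under 6 of the alternatives. The call of VCS was lost with all 3 trends of length, GC content and abundance removed. XRN4, the cytoplasmic exonuclease that degrades decapped mRNA, had 10.4 ± 0.568 FPKM in dcp5-1 and 13.5 ± 0.746 FPKM in Col-0 (log2 difference -0.34, SE 0.07, adjusted p = 0.0016 in limma). DCP5-L, the closest relative of DCP5 on the list, was lower too, with 6.57 ± 0.316 FPKM in dcp5-1 and 9.08 ± 0.412 FPKM in Col-0 (log2 difference -0.41, SE 0.077, adjusted p = 0.000869 in limma). Among the DEAD-box helicases, AT2G45810 had a difference of -0.54 and RH8 of -0.20 (limma adjusted p = 9.55e-06 and 0.0277), and AT3G61240 was not called at -0.04. The call of RH8 was lost in a fit to the 60 min samples alone, with quantile normalization and when any of several 60 min samples was left out. Of the genes annotated as topoisomerase II-associated or PAT1 proteins, AT3G22270 and AT1G79090 were lower by 0.30 and 0.20 log2 units, and AT4G14990 was not called at -0.12. The putative endonuclease AT2G15560 was lower (log2 difference -0.35, SE 0.089, adjusted p = 0.00619 in limma). LSM transcripts are short (median 748 nt) and the other 14 are long (median 2678.5 nt), and differences at 60 min went with transcript length over all genes. With the length trend removed, the LSM genes still had 7 higher and 0 lower (median 0.18), and the others had 0 higher and 6 lower (median -0.14), with VCR, XRN4, AT3G22270, AT1G79090 and RH8 no longer called. With trends of length, GC content and abundance removed, 3 LSM genes were called.

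Other routes of mRNA decay followed the same side as the decapping enzymes. Of 8 genes of surveillance and 3′ to 5′ decay 1 was higher and 6 lower (median -0.36). UPF1, the helicase of nonsense-mediated decay, had 13.1, 11.8 and 12.3 FPKM in dcp5-1, against 19.8, 19.1 and 19.3 FPKM in Col-0 (log2 difference -0.61, SE 0.063, adjusted p = 1.24e-05 in limma). SOV, an exoribonuclease, was the member that rose (log2 difference 0.22, SE 0.053, adjusted p = 0.00434 in limma). Of 10 genes of small RNA silencing 1 rose and 5 fell (median -0.29), among them AGO1, the slicer of the microRNA pathway, with 19.6 ± 0.449 FPKM in dcp5-1 and 28.7 ± 1.12 FPKM in Col-0 (log2 difference -0.53, SE 0.051, adjusted p = 7.94e-06 in limma). These transcripts are long (medians of 3941 and 3566.5 nt): with the length trend removed, 2 surveillance genes were higher and 3 lower, and 1 and 2 silencing genes, with a silencing median of 0.02.

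Of 15 genes that act in deadenylation or encode tandem zinc finger proteins, 3 rose and 5 fell (median -0.06), and the largest differences were those of zinc finger genes induced by stress. SZF1, a salt-inducible zinc finger protein, had 6.27, 5.96 and 6.53 FPKM in dcp5-1, against 17.9, 18.7 and 17.81 FPKM in Col-0 (log2 difference -1.40, SE 0.073, adjusted p = 8.43e-08 in limma). TZF2 had 37.8, 38.6 and 39.2 FPKM in dcp5-1, against 109, 103 and 95.6 FPKM in Col-0 (log2 difference -1.39, SE 0.09, adjusted p = 4.67e-07 in limma). TZF3 was lower by 0.95 log2 units (limma adjusted p = 1.81e-05). All of these proteins bind mRNA and locate to processing bodies and stress granules. Of 13 genes of stress granules and translation initiation 6 rose and 3 fell (median 0.17). EIF4E, the cap-binding initiation factor, had 79.9 ± 1.59 FPKM in dcp5-1 and 63.1 ± 2.57 FPKM in Col-0 (log2 difference 0.34, SE 0.048, adjusted p = 0.000132 in limma), and RBP47B, a marker protein of stress granules, had 43.0 ± 0.738 FPKM in dcp5-1 and 36.5 ± 1.38 FPKM in Col-0 (log2 difference 0.23, SE 0.049, adjusted p = 0.00191 in limma). With the length trend removed 9 of the 13 were higher and 0 lower, with all 3 trends removed 5 and 1, and with quantile normalization 4 and 4. The call of EIF4E was lost with all 3 trends removed (0.08, limma adjusted p = 0.326).

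Heat shock chaperones were the group with the highest median of the lists, whose members were chosen with earlier results of these data known. Of 28 genes 27 were tested, 19 rose, 0 fell, and the median log2 difference was 0.95. At 0 min 20 were higher and 1 lower, with a median of 0.52, beside 18.8% and 28.1% of all genes. The interaction was positive and called for 5 of 27, beside 16.3% of all genes. These proteins keep damaged proteins soluble or refold them, and they are induced by heat and other stresses. HSP17.6II (AT5G12020), a cytosolic small heat shock protein of class II, had 85.5, 84.5 and 93.4 FPKM in dcp5-1, against 9.73, 11.4 and 8.31 FPKM in Col-0 (log2 difference 3.04, SE 0.099, adjusted p = 3.08e-09 in limma). Its neighbour on the chromosome, HSP17.6A (AT5G12030), had 18.4, 23.0 and 21.8 FPKM in dcp5-1, against 3.34, 3.20 and 2.21 FPKM in Col-0 (log2 difference 2.501, SE 0.12, adjusted p = 6.12e-08 in limma). HSP17.4 (AT3G46230), of class I, had 15.02, 18.7 and 15.4 FPKM in dcp5-1, against 1.68, 2.64 and 2.799 FPKM in Col-0 (log2 difference 2.38, SE 0.14, adjusted p = 2.82e-07 in limma). The mutant samples of each of these 3 genes lay at least 5 times above the highest Col-0 sample of that gene. HSP90.1 (AT5G52640), the stress-inducible cytosolic HSP90, had 21.01, 22.2 and 20.98 FPKM in dcp5-1, against 2.52, 2.51 and 2.68 FPKM in Col-0 (log2 difference 2.65, SE 0.074, adjusted p = 1.1e-09 in limma). HSP70 (AT3G12580) had 15.701, 15.4 and 16.1 FPKM in dcp5-1, against 5.47, 5.78 and 6.10 FPKM in Col-0 (log2 difference 1.30, SE 0.11, adjusted p = 3.95e-06 in limma).

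Of 12 small heat shock protein genes tested 10 rose, with a median of 1.41. The plastid protein HSP21 had 8.61 ± 0.529 FPKM in dcp5-1 and 2.17 ± 0.0905 FPKM in Col-0 (log2 difference 1.60, SE 0.11, adjusted p = 6.34e-07 in limma). Of the HSP20-like genes without a symbol in the reference, AT1G07400 was higher by 1.77, AT2G29500 by 1.44, AT5G51440 by 1.39 and AT1G53540 by 1.17 log2 units. AT1G53540 was the most abundant of them, with 183 ± 9.89 FPKM in dcp5-1 and 81.1 ± 5.72 FPKM in Col-0. ATHSP22.0 and HSP23.6-MITO were called at low levels, and ATHSP22.0 had 1.94 ± 0.201 FPKM in dcp5-1 and 0.187 ± 0.122 FPKM in Col-0. HSP18.2 (0.17) and AT5G37670 (-0.04) were not called, and AT1G52560 was too low to be tested.

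Larger chaperones and their helpers gave a mixed picture. The cochaperones ROF2 and ROF1 rose by 1.04 and 0.60 log2 units (limma adjusted p = 5.15e-06 and 1.16e-05) and HOP3 by 0.32. The disaggregases CLPB3 of plastids and CLPB4 of mitochondria rose by 0.44 and 0.36. The cytosolic disaggregase HSP101 had 1.59 ± 0.191 FPKM in dcp5-1 and 1.07 ± 0.193 FPKM in Col-0 (log2 difference 0.33, SE 0.11, adjusted p = 0.0303 in limma), a call lost when any of 4 of the 60 min samples was left out. APX2, a heat-inducible ascorbate peroxidase, rose by 0.95 (limma adjusted p = 0.00108). The constitutive members HSC70-1, HSP90.2 and HSP81-3 were not called, at 0.07, 0.12 and 0.16 (HSP90.2 and HSP81-3 were called higher with the length trend removed), nor were MBF1C (0.06), HSA32 (0.01) and BAG6 (-0.07). HSC70-1 had the highest mean level at 60 min of any chaperone on the list, with 197 ± 5.42 FPKM in dcp5-1 and 188 ± 5.29 FPKM in Col-0.

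Windows of 250 bases upstream of the gene starts were searched for the heat shock element, to which heat shock factors bind, in the letters GAANNTTC and TTCNNGAA on both strands. It was found in 10 of 27 chaperone windows (37.0%), against 15.8% of the windows of all nuclear protein-coding genes tested. Among genes past 1 log2 unit it was in 32 of 213 higher and 41 of 214 lower ones. HSP17.6II, HSP90.1 and HSP70 had no match in their windows. The windows of 3 raised genes are shown with matches in capitals, from TAIR10.1 as annotated by RefSeq: HSP17.4 (chr3:16984868-16985117, minus strand), whose 4 matches overlap in 2 pairs at 99 and 94 and at 18 and 13 bases before the start, HSP17.6A (chr5:3884839-3885088, minus strand) with 1 match at 22 bases, and HSP21 (chr4:13819972-13820221, minus strand) with 1 at 100 bases. They are written 5′ to 3′ on the strand of the gene, ending at the base before its start.
HSP17.4: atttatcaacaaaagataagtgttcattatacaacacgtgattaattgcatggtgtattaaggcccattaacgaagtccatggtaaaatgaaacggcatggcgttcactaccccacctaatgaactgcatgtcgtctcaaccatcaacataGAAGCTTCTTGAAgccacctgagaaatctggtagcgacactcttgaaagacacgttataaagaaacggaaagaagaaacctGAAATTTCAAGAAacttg
HSP17.6A: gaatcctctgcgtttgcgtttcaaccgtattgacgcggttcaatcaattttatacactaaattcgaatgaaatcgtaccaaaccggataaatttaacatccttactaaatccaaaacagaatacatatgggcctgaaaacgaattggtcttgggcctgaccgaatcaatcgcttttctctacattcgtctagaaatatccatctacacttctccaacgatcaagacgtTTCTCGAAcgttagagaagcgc
HSP21: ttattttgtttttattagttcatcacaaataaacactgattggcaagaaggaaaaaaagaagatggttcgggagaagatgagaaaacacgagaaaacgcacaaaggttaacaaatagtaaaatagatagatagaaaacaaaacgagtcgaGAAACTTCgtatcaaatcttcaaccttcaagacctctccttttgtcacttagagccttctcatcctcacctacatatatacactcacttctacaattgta

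Heat shock factors themselves were split. Of 11 tested 3 rose and 3 fell (median -0.10), shares of 27.3% each, near those of all genes. HSFA2, which sustains the heat response, had 2.87 ± 0.451 FPKM in dcp5-1 and 0.596 ± 0.120 FPKM in Col-0 (log2 difference 1.27, SE 0.12, adjusted p = 6.74e-06 in limma), at a level of few FPKM. HSFB1 had 65.5 ± 1.03 FPKM in dcp5-1 and 53.5 ± 1.47 FPKM in Col-0 (log2 difference 0.29, SE 0.038, adjusted p = 7.96e-05 in limma), and HSFA4A had 4.04 ± 0.249 FPKM in dcp5-1 and 5.94 ± 0.149 FPKM in Col-0 (log2 difference -0.46, SE 0.068, adjusted p = 0.000163 in limma). Of 9 tested genes of the unfolded protein response of the endoplasmic reticulum 7 rose and 2 fell (median 0.53). BIP2, the HSP70 of that compartment, had 37.5, 33.4 and 37.3 FPKM in dcp5-1, against 16.8, 18.8 and 17.5 FPKM in Col-0 (log2 difference 0.99, SE 0.088, adjusted p = 4.54e-06 in limma). SDF2, ERDJ3B and CNX1, which help proteins fold there, rose by 0.92, 0.78 and 0.66 log2 units. The members that fell, BZIP28 (-0.25) and BZIP60 (-0.28), are the transcription factors of this response. The call of BZIP28 was lost with the length trend removed (limma adjusted p = 0.0651), and that of BZIP60 when any of 3 of the 60 min samples was left out.

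Cytosolic ribosomal protein genes were higher as a block after salt. All 16 on the list rose, between 0.28 and 0.83 log2 units, with a median of 0.50. RPS5B had 95.7, 97.7 and 99.1 FPKM in dcp5-1, against 54.1, 54.9 and 53.8 FPKM in Col-0 (log2 difference 0.83, SE 0.077, adjusted p = 5.67e-06 in limma). RPL24B had 438, 449 and 455 FPKM in dcp5-1, against 294, 301 and 279 FPKM in Col-0 (log2 difference 0.62, SE 0.048, adjusted p = 1.62e-06 in limma). RPS6B, the target of S6 kinase signalling, had 521, 506 and 538 FPKM in dcp5-1, against 335, 346 and 335 FPKM in Col-0 (log2 difference 0.62, SE 0.098, adjusted p = 0.000262 in limma). Every one of the mutant samples was above every Col-0 sample for these genes, at folds under 2. At 0 min the list had 4 genes higher and 1 lower (median 0.02), beside 18.8% and 28.1% of all genes. The change of the difference between the times depended on the scaling. The interaction was positive and called for 13 of 16, beside 16.3% of all genes. It was so for 12 with the length trend removed, for 5 with quantile normalization and for 2 with trends of length, GC content and abundance removed. Ribosomal protein transcripts are short (median 1066 nt). With the length trend removed 15 of 16 were higher (median 0.43), with all 3 trends removed 14 (median 0.29), and with quantile normalization 16 (median 0.35). The call of RPL10A, the lowest of them, was lost when any of 5 of the 60 min samples was left out. Many of them have close paralogs among which reads may be divided.

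Nucleolar factors that build ribosomes were also higher, with 10 of 14 up, 2 down and a median of 0.38. FIB1 and FIB2, the fibrillarins of the particles that methylate rRNA, had differences of 0.60 and 0.73 log2 units. FIB1 had 106 ± 4.71 FPKM in dcp5-1 and 69.8 ± 0.562 FPKM in Col-0 (log2 difference 0.60, SE 0.07, adjusted p = 3.24e-05 in limma). NOP56, a core protein of the same particles, had 37.7 ± 1.46 FPKM in dcp5-1 and 23.2 ± 1.09 FPKM in Col-0 (log2 difference 0.68, SE 0.06, adjusted p = 4.4e-06 in limma). The members that fell were NOF1 (-0.41) and PUM23 (-0.41), whose call was lost with all 3 trends removed. Genes of dividing cells had 5 of 9 higher and 0 lower (median 0.37). PCNA1, the sliding clamp of DNA replication, had 11.3, 9.83 and 11.3 FPKM in dcp5-1, against 5.95, 5.60 and 4.85 FPKM in Col-0 (log2 difference 0.87, SE 0.1, adjusted p = 3.64e-05 in limma), while the mitotic cyclin CYCB1;1 was not called (log2 difference -0.07, SE 0.15, adjusted p = 0.733 in limma). CYCD3;3 and CYCD3;1, cyclins that promote entry into the cycle, rose by 0.74 and 0.56. The summed level of the division list was 108 to 112 FPKM in dcp5-1 samples and 73.1 to 77.6 FPKM in Col-0 samples, and its part in the rise of ribosomal genes was not tested.

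The letters GGCCCA, called the site II motif in promoters of ribosomal genes, were looked for in the same windows on both strands. They were found in 9 of 16 ribosomal windows (56.2%), against 16.7% of all windows. They were also in 12 of 27 chaperone windows (44.4%), in 38 of 213 genes higher by at least 1 log2 unit and in 12 of 214 (5.61%) lower by as much. The windows with 3 matches are shown, with the matches in capitals: RPL24B (chr3:19662026-19662275, minus strand), RPS6B (chr5:3260255-3260504, minus strand), where 2 matches overlap, and AT3G09630 (chr3:2953443-2953692, plus strand), a ribosomal protein gene that rose by 0.51 log2 units.
RPL24B: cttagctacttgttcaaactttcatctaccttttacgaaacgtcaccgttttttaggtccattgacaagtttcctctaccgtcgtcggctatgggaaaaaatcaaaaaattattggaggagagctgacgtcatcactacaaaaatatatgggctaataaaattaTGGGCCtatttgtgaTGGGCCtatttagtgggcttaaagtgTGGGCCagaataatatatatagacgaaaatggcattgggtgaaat
RPS6B: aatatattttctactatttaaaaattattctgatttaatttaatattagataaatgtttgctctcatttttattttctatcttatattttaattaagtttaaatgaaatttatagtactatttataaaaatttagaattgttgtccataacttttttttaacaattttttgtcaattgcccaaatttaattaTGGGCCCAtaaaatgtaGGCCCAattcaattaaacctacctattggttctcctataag
AT3G09630: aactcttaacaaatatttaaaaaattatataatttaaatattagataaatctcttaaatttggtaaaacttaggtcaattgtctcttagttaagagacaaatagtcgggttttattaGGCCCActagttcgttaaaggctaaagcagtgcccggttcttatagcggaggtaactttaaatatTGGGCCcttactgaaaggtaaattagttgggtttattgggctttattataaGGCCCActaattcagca

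Genes of the salt and abscisic acid (ABA) response itself did not move as one block. ABA is the hormone that rises when cells lose water, and its receptors inhibit clade A PP2C phosphatases, which frees SnRK2 kinases to activate ABF factors and their dehydration genes. Of 22 ABA and dehydration effectors 4 were higher and 8 lower in dcp5-1 (median -0.11), and with quantile normalization or all 3 trends removed 2 were higher and 11 lower. RD29B, a target of ABF factors, had 27.5, 28.3 and 27.4 FPKM in dcp5-1, against 52.3, 47.1 and 53.8 FPKM in Col-0 (log2 difference -0.85, SE 0.066, adjusted p = 1.72e-06 in limma). RD29A had 274, 259 and 254 FPKM in dcp5-1, against 368, 367 and 384 FPKM in Col-0 (log2 difference -0.51, SE 0.083, adjusted p = 0.000354 in limma). The dehydrin LTI30 had 344, 377 and 390.5 FPKM in dcp5-1, against 612, 614 and 581 FPKM in Col-0 (log2 difference -0.70, SE 0.053, adjusted p = 1.44e-06 in limma). The lipid transfer proteins LTP3 and LTP4 went the other way, at 0.66 and 1.013 log2 units, and LTP4 had 20.7 ± 0.466 FPKM in dcp5-1 and 9.84 ± 1.61 FPKM in Col-0 (log2 difference 1.013, SE 0.11, adjusted p = 1.85e-05 in limma). KIN2 had 2022 ± 192 FPKM in dcp5-1 and 3039.6 ± 217 FPKM in Col-0 (log2 difference -0.59, SE 0.097, adjusted p = 0.000365 in limma), a call lost with quantile normalization. LTP3 and LTP4, and KIN2 and its neighbour KIN1, are close copies between which reads may be divided.

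Signalling components upstream of these effectors had small differences. Of 5 ABF and ABI5 factors 0 rose and 3 fell (median -0.44), among them ABF3 with 89.6 ± 0.957 FPKM in dcp5-1 and 133 ± 7.61 FPKM in Col-0 (log2 difference -0.57, SE 0.09, adjusted p = 0.00028 in limma) and ABF4 with a difference of -0.51. Of 8 PP2C genes tested 1 rose and 6 fell (median -0.24). AHG3 had 114 ± 3.301 FPKM in dcp5-1 and 169 ± 3.38 FPKM in Col-0 (log2 difference -0.57, SE 0.044, adjusted p = 1.77e-06 in limma), and ABI1, the member that rose, had 239.9 ± 3.54 FPKM in dcp5-1 and 197 ± 5.76 FPKM in Col-0 (log2 difference 0.28, SE 0.041, adjusted p = 0.000165 in limma), a call lost with quantile normalization (limma adjusted p = 0.0594). With the length trend removed 1 PP2C gene was higher and 3 lower (median -0.16). Of 9 receptors 3 rose and 1 fell, led by PYL4 with 69.3 ± 2.24 FPKM in dcp5-1 and 46.2 ± 4.60 FPKM in Col-0 (log2 difference 0.58, SE 0.094, adjusted p = 0.000329 in limma). Of 10 SnRK2 kinases 2 rose and 4 fell (0 higher and 4 lower with all 3 trends removed), and OST1, the kinase of stomatal closure, had 16.5 ± 0.206 FPKM in dcp5-1 and 21.1 ± 1.03 FPKM in Col-0 (log2 difference -0.33, SE 0.061, adjusted p = 0.000763 in limma).

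ABA synthesis and breakdown had 2 of 9 genes higher and 5 lower (median -0.29). NCED3, the rate-limiting enzyme of stress-induced ABA synthesis, had 40.5 ± 0.873 FPKM in dcp5-1 and 56.5 ± 1.47 FPKM in Col-0 (log2 difference -0.47, SE 0.11, adjusted p = 0.00374 in limma), a call lost with all 3 trends removed (-0.26, limma adjusted p = 0.0585). The list then had 2 genes higher and 3 lower (median -0.11), and 2 and 4 with the length trend alone removed (median -0.09). BGLU18, which releases ABA from its glucose ester, had 24.8, 24.2 and 24.7 FPKM in dcp5-1, against 71.9, 62.7 and 67.1 FPKM in Col-0 (log2 difference -1.42, SE 0.06, adjusted p = 2.01e-08 in limma). CYP707A2 and CYP707A3, both ABA hydroxylases, moved apart, with 0.85 and -0.77 log2 units (limma adjusted p = 7.46e-05 and 1.76e-06).

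Stress transcription factors were mostly lower. Of 41 tested 29 fell and 5 rose, with a median of -0.38. At 0 min 31 were lower and 3 higher, with a median of -0.68. The interaction was called positive for 14 and negative for 5, beside 16.3% and 8.06% of all genes, shares that moved with the scaling. WRKY33, a factor of defence and osmotic stress, had 19.1, 19.9 and 19.4 FPKM in dcp5-1, against 57.5, 55.5 and 58.7 FPKM in Col-0 (log2 difference -1.51, SE 0.063, adjusted p = 1.9e-08 in limma). ERF6, an ethylene response factor that restrains growth in stress, had 2.39, 2.65 and 3.14 FPKM in dcp5-1, against 11.5, 10.7 and 10.08 FPKM in Col-0 (log2 difference -1.66, SE 0.12, adjusted p = 1.09e-06 in limma). CBF2, a factor of the cold response, had 10.9, 10.12 and 13.7 FPKM in dcp5-1, against 34.8, 35.7 and 31.1 FPKM in Col-0 (log2 difference -1.48, SE 0.13, adjusted p = 3.55e-06 in limma). Each was lower in all mutant samples. CBF3, a tandem neighbour and close copy of CBF2, fell by 1.18 at 60 min, beside a difference of 0.04 at 0 min (interaction -1.22, SE 0.2, limma adjusted p = 0.00212). The members that rose most at levels above 5 FPKM were ERF11, with 12.5 ± 1.56 FPKM in dcp5-1 and 6.27 ± 0.300 FPKM in Col-0 (log2 difference 0.89, SE 0.13, adjusted p = 0.000151 in limma), and NAC019, with 96.3 ± 2.71 FPKM in dcp5-1 and 56.6 ± 1.14 FPKM in Col-0 (log2 difference 0.76, SE 0.078, adjusted p = 1.26e-05 in limma).

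Ion transport had 2 of 19 genes higher and 7 lower (median -0.16), or 2 and 4 with the length trend removed (median -0.01). KUP6, a potassium transporter, had 10.8, 10.6 and 9.80 FPKM in dcp5-1, against 26.7, 27.7 and 26.4 FPKM in Col-0 (log2 difference -1.30, SE 0.06, adjusted p = 4.1e-08 in limma). SCABP8, the shoot partner of the SOS pathway that extrudes sodium, had 9.28 ± 0.754 FPKM in dcp5-1 and 18.3 ± 1.40 FPKM in Col-0 (log2 difference -0.91, SE 0.092, adjusted p = 1.19e-05 in limma). The vacuolar calcium exchanger CAX1 rose, with 51.2 ± 1.56 FPKM in dcp5-1 and 37.1 ± 0.839 FPKM in Col-0 (log2 difference 0.45, SE 0.042, adjusted p = 5.99e-06 in limma). Of 16 genes of proline, raffinose and starch metabolism 2 rose and 10 fell (median -0.32), with 7 lower (median -0.13) once the length trend was removed and 8 (median -0.15) once all 3 trends were. P5CS1, the rate-limiting enzyme of proline synthesis, had 252, 251 and 252 FPKM in dcp5-1, against 449, 434 and 461 FPKM in Col-0 (log2 difference -0.83, SE 0.04, adjusted p = 5.53e-08 in limma). GOLS2, which starts raffinose synthesis, had 15.3, 14.2 and 14.3 FPKM in dcp5-1, against 37.8, 37.2 and 38.7 FPKM in Col-0 (log2 difference -1.32, SE 0.12, adjusted p = 5.96e-06 in limma). BAM3, a plastid starch amylase, stood apart as higher, with 24.3, 26.2 and 25.9 FPKM in dcp5-1, against 8.76, 9.91 and 8.86 FPKM in Col-0 (log2 difference 1.38, SE 0.056, adjusted p = 1.42e-08 in limma).

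Jasmonate genes had the lowest median of the lists, a rank that may reflect the choice of members with earlier results of these data known. Of 22 tested 18 fell and 0 rose, with a median of -0.59. Jasmonates are made from membrane lipids by lipoxygenases and allene oxide enzymes in plastids, and JAZ proteins hold MYC2 inactive until the hormone removes them. LOX2, a lipoxygenase of the first step, had 15.3, 15.3 and 14.8 FPKM in dcp5-1, against 37.9, 38.8 and 40.4 FPKM in Col-0 (log2 difference -1.31, SE 0.042, adjusted p = 3.08e-09 in limma). MYC2, the transcription factor at the centre of the response, had 20.6, 21.3 and 19.8 FPKM in dcp5-1, against 48.6, 51.0 and 48.1 FPKM in Col-0 (log2 difference -1.22, SE 0.051, adjusted p = 1.98e-08 in limma). LOX3 had 6.29, 5.70 and 6.18 FPKM in dcp5-1, against 13.3, 13.9 and 12.7 FPKM in Col-0 (log2 difference -1.02, SE 0.05, adjusted p = 6.5e-08 in limma). In these 3 genes the mutant samples were at or below 50% of the lowest Col-0 sample. VSP2, a vegetative storage protein used as a marker of the hormone, had 23.56, 20.6 and 22.4 FPKM in dcp5-1, against 43.5, 48.3 and 44.1 FPKM in Col-0 (log2 difference -0.997, SE 0.066, adjusted p = 5.45e-07 in limma). AOS and OPR3, later enzymes of synthesis, were lower by 0.78 and 0.60 log2 units. JAZ9, JAZ5, JAZ7, JAZ2, JAZ6, JAZ12 and JAZ3 fell, by between 0.52 and 0.94, and JAZ1, JAZ8, JAZ10 and the receptor COI1 were not called, at 0.03, 0.01, 0.13 and -0.04. At 0 min 15 of the 22 were lower and 2 higher (median -0.33), and for 12 the difference at 60 min was more negative than at 0 min in the test of the interaction. The median lay between -0.63 and -0.74 under the length, 3-trend and quantile alternatives, each with 17 lower and 0 higher.

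Ethylene and auxin genes were mixed, with 6 of 17 and 5 of 16 higher and 6 and 8 lower. With all 3 trends removed 9 ethylene genes were higher and 6 lower, and 3 and 9 auxin genes. The ethylene receptors ERS1 and ETR2 rose by 0.76 and 0.78 log2 units. ACS6, an enzyme of ethylene synthesis, had 20.3 ± 1.02 FPKM in dcp5-1 and 32.6 ± 1.22 FPKM in Col-0 (log2 difference -0.66, SE 0.055, adjusted p = 2.87e-06 in limma). GH3.5 and GH3.3, which conjugate auxin, were lower by 0.98 and 1.18 log2 units, while the auxin repressors IAA4 and IAA3 were higher by 0.59 and 0.53.

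Of the clock genes, the morning loop differed most. In the plant clock, CCA1 and LHY act at dawn and the PRR proteins, expressed one after another through the day, repress them. LHY (AT1G01060) had 176, 173 and 176 FPKM in dcp5-1, against 69.4, 65.8 and 69.8 FPKM in Col-0 (log2 difference 1.34, SE 0.045, adjusted p = 3.99e-09 in limma). PRR9 (AT2G46790) had 6.47, 5.98 and 7.22 FPKM in dcp5-1, against 39.1, 37.0 and 38.9 FPKM in Col-0 (log2 difference -2.38, SE 0.1, adjusted p = 2.53e-08 in limma). PRR7 (AT5G02810) had 9.91, 9.89 and 10.8 FPKM in dcp5-1, against 41.5, 37.6 and 43.6 FPKM in Col-0 (log2 difference -1.90, SE 0.096, adjusted p = 6.85e-08 in limma). Mutant and Col-0 samples did not overlap, LHY being higher and both PRR genes lower in dcp5-1. For the PRR genes, chosen among the largest falls, the absence of overlap was required by the choice. PRR5 had 1.33, 1.43 and 1.40 FPKM in dcp5-1, against 3.76, 4.98 and 4.79 FPKM in Col-0 (log2 difference -1.20, SE 0.12, adjusted p = 1.09e-05 in limma). GI had 1.36 ± 0.114 FPKM in dcp5-1 and 3.63 ± 0.473 FPKM in Col-0 (log2 difference -0.97, SE 0.095, adjusted p = 9.46e-06 in limma), and RVE8, an activator related to LHY, had 36.5 ± 1.37 FPKM in dcp5-1 and 24.9 ± 2.14 FPKM in Col-0 (log2 difference 0.54, SE 0.065, adjusted p = 4.34e-05 in limma). CCA1 differed less, with 121 ± 5.31 FPKM in dcp5-1 and 135 ± 0.534 FPKM in Col-0 (log2 difference -0.17, SE 0.052, adjusted p = 0.0173 in limma), a call lost with the length trend removed or when either of 2 of the mutant 60 min samples was left out. Of 13 clock genes tested 2 rose and 5 fell (4 and 5 with all 3 trends removed). TOC1, LUX, ELF3, ELF4, RVE1 and ZTL were not called, between -0.21 and 0.15. Some were called under alternatives. TOC1 was called higher with the length trend removed (0.26), and RVE1 in the fit to the 60 min samples alone (0.15). With quantile normalization LUX was called higher (0.21) and ZTL lower (-0.19). A truncated copy, AT2G46670, shares sequence with PRR9, so reads may be divided between them. The labels give no time of day for the samples.

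The G-box CACGTG, read by many bHLH and bZIP factors, was in 6 of 13 clock windows (46.2%), in 5 of 22 jasmonate windows (22.7%), in 7 of 36 photosystem and antenna windows (19.4%), in 5 of 27 chaperone windows (18.5%) and in 7.63% of all windows. A G-box followed by G or T also holds the ABA-responsive core ACGTGG or ACGTGT. The windows of PRR9 (chr2:19232357-19232606, plus strand), with 2 G-boxes at 244 and 172 bases before the start, and PRR7 (chr5:642031-642280, minus strand), with 1 at 201, are shown as the clock genes that fell most, with the G-boxes in capitals.
PRR9: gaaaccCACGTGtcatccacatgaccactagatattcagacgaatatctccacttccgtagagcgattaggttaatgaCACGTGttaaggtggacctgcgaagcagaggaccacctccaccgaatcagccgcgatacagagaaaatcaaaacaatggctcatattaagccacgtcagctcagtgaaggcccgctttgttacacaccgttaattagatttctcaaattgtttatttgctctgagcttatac
PRR7: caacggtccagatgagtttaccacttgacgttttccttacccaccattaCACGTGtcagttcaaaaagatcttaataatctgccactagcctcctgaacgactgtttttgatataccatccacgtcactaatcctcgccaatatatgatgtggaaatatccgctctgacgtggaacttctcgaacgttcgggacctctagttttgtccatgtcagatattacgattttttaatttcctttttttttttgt

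**Figure D3:**
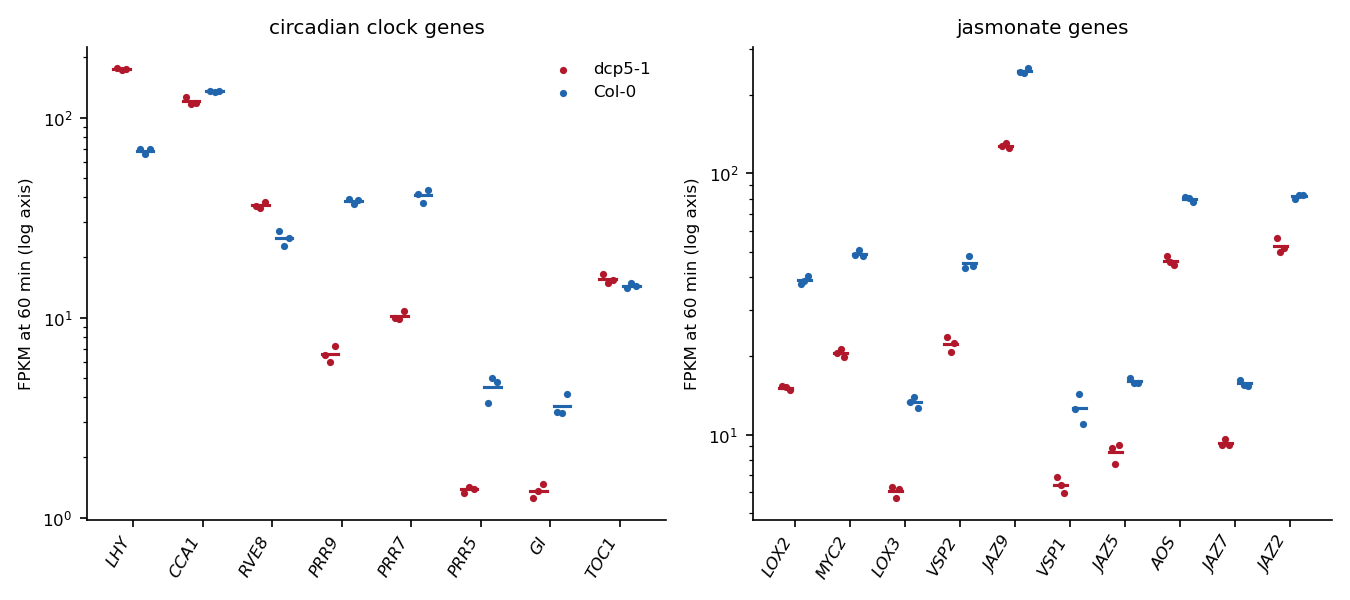
FPKM (log axis) of 8 clock genes and of the 10 jasmonate genes with the largest falls at 60 min, with red points for the 3 dcp5-1 samples, blue points for the 3 Col-0 samples and lines at the means. LHY stands near 175 FPKM in dcp5-1 and near 68 FPKM in Col-0, PRR9 and PRR7 stand lower in dcp5-1, and each of the 10 jasmonate genes has its mutant samples below its Col-0 samples.

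Nuclear genes of photosystems and antennae were mostly lower in the mutant after salt, as they had been before it. Of 36 tested 22 fell and 3 rose (median -0.26), beside 35 lower at 0 min (median -0.77). The interaction was positive and called for 21, for 11 with quantile normalization and for 2, with 1 negative and a median of -0.15, with trends of length, GC content and abundance removed. LHCB2.3, a light-harvesting protein of photosystem II, had 430.3, 447 and 435 FPKM in dcp5-1, against 1386, 1484 and 1342 FPKM in Col-0 (log2 difference -1.68, SE 0.084, adjusted p = 6.85e-08 in limma). PSAN, a subunit of photosystem I, had 1559, 1569 and 1575 FPKM in dcp5-1, against 3207, 2939 and 2802 FPKM in Col-0 (log2 difference -0.93, SE 0.1, adjusted p = 1.85e-05 in limma). LHCB2.1 was lower by 0.66 (limma adjusted p = 0.000287), while LHCA5 was higher by 0.38 (limma adjusted p = 0.000201). LHCB genes are a family of close copies, so reads may be divided among them. With the length trend removed 30 were lower and 2 higher, and with all 3 trends removed 15 and 2.

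Calvin cycle genes had 4 of 10 higher and 1 lower at 60 min (median 0.11), beside 9 lower at 0 min. The interaction was positive and called for all 10, for 6 with quantile normalization and for 4 with all 3 trends removed. With quantile normalization 2 were higher and 3 lower at 60 min. RCA, the activase of Rubisco, had 2886, 2760.2 and 2923 FPKM in dcp5-1, against 1890.4, 1968 and 1903 FPKM in Col-0 (log2 difference 0.57, SE 0.08, adjusted p = 0.000118 in limma), beside a difference of -0.57 at 0 min (interaction 1.14, SE 0.11, limma adjusted p = 0.000144). PRK, which regenerates the acceptor of CO2, had 397 ± 12.6 FPKM in dcp5-1 and 321 ± 10.9 FPKM in Col-0 (log2 difference 0.31, SE 0.046, adjusted p = 0.000191 in limma), a call lost with quantile normalization. Chlorophyll synthesis had 6 of 13 higher and 4 lower (4 and 3 with all 3 trends removed), with HEMA1, the first committed enzyme, at 180.2 ± 3.08 FPKM in dcp5-1 and 129 ± 3.36 FPKM in Col-0 (log2 difference 0.48, SE 0.04, adjusted p = 2.94e-06 in limma) and PORB at 22.4 ± 1.21 FPKM in dcp5-1 and 35.1 ± 0.825 FPKM in Col-0 (log2 difference -0.63, SE 0.066, adjusted p = 1.53e-05 in limma). Besides ELIP1 and ELIP2, the related one-helix and light-harvesting-like genes SEP1 and LIL3:1 rose by 0.48 and 0.40 log2 units. This list had 4 of 5 genes higher and 0 lower. With the length trend removed, all 3 trends removed or quantile normalization it had 4 higher and 1 lower.

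**Figure D4:**
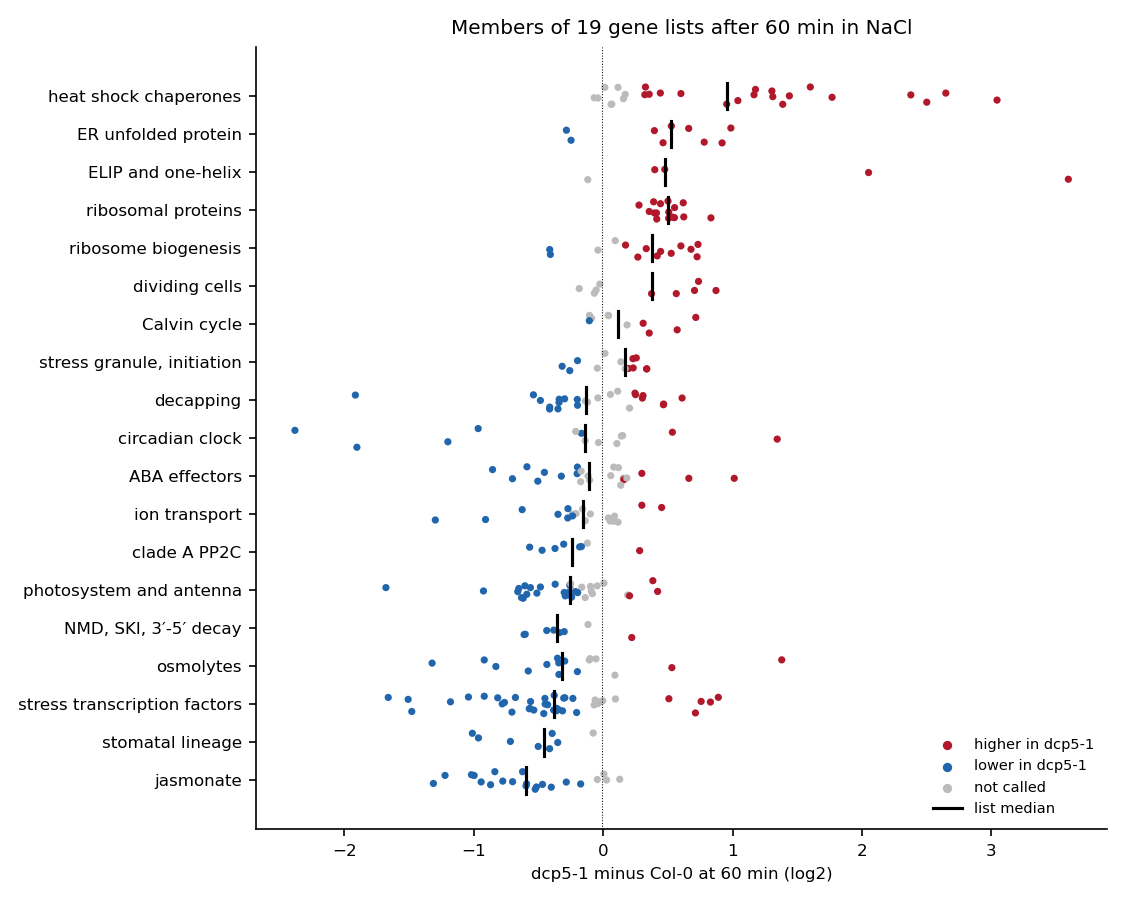
Difference between dcp5-1 and Col-0 at 60 min (log2, horizontal axis) for the tested members of 19 gene lists, one point per gene, red where called higher in dcp5-1, blue where called lower and grey where not called, with black bars at list medians and a dotted line at the median of all genes. Chaperones have the highest median (0.95), jasmonate genes the lowest (-0.59), and all 16 ribosomal protein genes lie to the right of the dotted line. The lists were chosen with earlier results of these data known.

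Genes of secondary metabolism, walls and water transport moved in both directions. Of 26 glucosinolate genes 7 rose and 7 fell (26.9% each, near the shares of all genes), and with quantile normalization or all 3 trends removed 7 were higher and 10 lower. After ESM1, the largest rise was that of MYB28, the activator of aliphatic glucosinolate synthesis, with 46.5 ± 2.17 FPKM in dcp5-1 and 21.7 ± 0.971 FPKM in Col-0 (log2 difference 1.07, SE 0.047, adjusted p = 3e-08 in limma). MAM1, which elongates the methionine chain, had 20.6 ± 0.540 FPKM in dcp5-1 and 41.5 ± 0.902 FPKM in Col-0 (log2 difference -0.97, SE 0.054, adjusted p = 1.43e-07 in limma), and PEN2, a myrosinase of defence, had 24.6 ± 1.11 FPKM in dcp5-1 and 54.6 ± 0.828 FPKM in Col-0 (log2 difference -1.12, SE 0.061, adjusted p = 1.25e-07 in limma). Of 12 flavonoid genes 4 rose and 1 fell, and CHS, chalcone synthase, had 70.0 ± 4.69 FPKM in dcp5-1 and 44.6 ± 3.48 FPKM in Col-0 (log2 difference 0.64, SE 0.11, adjusted p = 0.000597 in limma). Of 21 wall growth genes 10 rose and 8 fell. XTH17, a xyloglucan enzyme with close copies, had 23.54 ± 1.14 FPKM in dcp5-1 and 9.84 ± 0.613 FPKM in Col-0 (log2 difference 1.18, SE 0.066, adjusted p = 1.43e-07 in limma), and the expansin EXPA8 rose by 0.91, while the cellulose synthase CESA6 fell by 0.42. Of 23 aquaporins 6 rose and 6 fell (26.1% each, also near those shares), and TIP1;1, the water channel of the vacuole, had 2063, 2117 and 2199 FPKM in dcp5-1, against 931, 958 and 898 FPKM in Col-0 (log2 difference 1.19, SE 0.12, adjusted p = 1.43e-05 in limma).

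Redox, hypoxia, defence, touch and seed lists were small or mixed. Of all genes 27.1% were higher and 27.4% lower. Of 11 redox genes 2 rose and 6 fell (3 and 4 with the length trend removed). The superoxide dismutases CSD1 and CSD2 were the ones that rose, by 0.56 and 0.41, and the catalase CAT3 had 202 ± 8.54 FPKM in dcp5-1 and 329 ± 1.96 FPKM in Col-0 (log2 difference -0.71, SE 0.043, adjusted p = 2.85e-07 in limma). Of 8 hypoxia genes 3 rose and 2 fell, and PCO1, which senses oxygen, had 3.64 ± 0.140 FPKM in dcp5-1 and 1.10 ± 0.238 FPKM in Col-0 (log2 difference 1.15, SE 0.099, adjusted p = 3.32e-06 in limma). Of 12 defence genes 3 rose and 3 fell, and ICS1, which makes the precursor of salicylic acid, had 2.05 ± 0.171 FPKM in dcp5-1 and 4.21 ± 0.406 FPKM in Col-0 (log2 difference -0.77, SE 0.079, adjusted p = 1.25e-05 in limma). Of 7 touch genes 2 rose and 1 fell (28.6% and 14.3%, or 1 and 2 genes with the length trend removed), led by CML24 with 42.3 ± 2.19 FPKM in dcp5-1 and 30.9 ± 1.89 FPKM in Col-0 (log2 difference 0.44, SE 0.059, adjusted p = 9.48e-05 in limma). Of 18 seed genes 7 were tested, 3 rose and 3 fell, and OLEO2, an oleosin of oil bodies, had 2.14 ± 0.206 FPKM in dcp5-1 and 4.12 ± 1.12 FPKM in Col-0 (log2 difference -0.69, SE 0.14, adjusted p = 0.00137 in limma), beside a difference of -3.27 at 0 min.

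Markers of cell types showed which other shifts went with these differences. The stomatal lineage had 7 of 8 genes lower and 0 higher (median -0.46). TMM, a receptor of that lineage, had 4.14, 4.41 and 4.49 FPKM in dcp5-1, against 9.50, 10.3 and 8.55 FPKM in Col-0 (log2 difference -0.96, SE 0.12, adjusted p = 5.72e-05 in limma). The lineage's markers summed to 39.4 to 42.4 FPKM in dcp5-1 samples and to 60.6 to 63.7 FPKM in Col-0 samples, with none of the 9 at 0. Root markers had 2 of 12 higher and 6 lower and summed to 100.5 to 104 FPKM in dcp5-1 samples and to 121 to 131 FPKM in Col-0 samples. EXPA7, of root hairs, fell by 0.82, and IRT1, the iron transporter, rose by 0.94. Vascular markers had 3 of 10 higher and 2 lower and summed to 271 to 282.0 FPKM in dcp5-1 samples and to 202.0 to 210.4 FPKM in Col-0 samples. XCP1 and XCP2, proteases of the xylem, rose by 0.87 and 0.60 log2 units. The list did not move as one, with a median of 0.03 and a lowest member at -0.64. IRX3, also on it, was called lower, a call lost with the length trend removed. Whether these shifts have a part in the differences of the other lists was not tested.

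The genotype difference at 60 min was compared with that at 0 min, which shares no sample with it. At 0 min 3731 genes were higher (18.8%) and 5582 lower (28.1%), and this split was 4796 and 4496 with quantile normalization and 4802 and 4660 with the length trend removed. Of the 239 genes higher by at least 1 log2 unit at 60 min, 203 were called higher at 0 min, 5 lower and 31 neither. Of the 243 lower ones, 208 were called lower, 3 higher and 32 neither. Genes past 1 log2 unit at both times numbered 119 higher, which is 49.8% of those at 60 min and 62.0% of those at 0 min, and 111 lower, 45.7% and 30.0%. Over 19876 genes the differences at the 2 times had Pearson r = 0.481 and Spearman rho = 0.604, as a description across genes that share libraries and depth. The difference at 60 min minus that at 0 min passed the interaction test in the positive direction for 3248 genes (16.3%) and in the negative direction for 1602 (8.06%). This split moved with the scaling: it was 2033 and 2077 with quantile normalization, and 1590 and 1504 with trends of length, GC content and abundance removed.

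Some genes that were higher in the mutant at 60 min had been lower at 0 min. AZI1 (AT4G12470), a lipid transfer-like protein of systemic immunity, had 118, 128 and 105 FPKM in dcp5-1, against 79.4, 82.8 and 76.9 FPKM in Col-0 (log2 difference 0.54, SE 0.095, adjusted p = 0.000533 in limma). At 0 min AZI1 had 19.2 ± 0.382 FPKM in dcp5-1 and 48.7 ± 6.90 FPKM in Col-0 (interaction 1.84, SE 0.13, limma adjusted p = 2.02e-05). TEM1 (AT1G25560), a repressor of flowering, had 165, 168 and 174 FPKM in dcp5-1, against 129, 126 and 118 FPKM in Col-0 (log2 difference 0.44, SE 0.073, adjusted p = 0.000395 in limma), beside 31.6 ± 1.33 FPKM in dcp5-1 and 71.1 ± 8.45 FPKM in Col-0 at 0 min (interaction 1.58, SE 0.1, limma adjusted p = 1.03e-05). NAC019, a factor of the ABA and jasmonate responses, had 95.9, 93.9 and 99.3 FPKM in dcp5-1, against 57.7, 56.6 and 55.4 FPKM in Col-0, beside 2.36 ± 0.184 FPKM in dcp5-1 and 4.81 ± 0.739 FPKM in Col-0 at 0 min (interaction 1.54, SE 0.11, limma adjusted p = 1.8e-05). These 3 genes were called lower at 0 min and higher at 60 min. FLA9 (AT1G03870), a fasciclin-like arabinogalactan protein of the wall, had 78.3, 83.3 and 80.6 FPKM in dcp5-1, against 39.9, 40.3 and 32.4 FPKM in Col-0 (log2 difference 1.09, SE 0.1, adjusted p = 7.83e-06 in limma), beside 556 ± 45.2 FPKM in dcp5-1 and 727 ± 96.5 FPKM in Col-0 at 0 min (interaction 1.47, SE 0.15, limma adjusted p = 0.000148).

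Growth regulators differed at 60 min without a called difference at 0 min. HEC1 (AT5G67060), a bHLH factor of gynoecium and stem cell growth, had 22.7, 24.1 and 25.4 FPKM in dcp5-1, against 6.24, 7.27 and 5.70 FPKM in Col-0 (log2 difference 1.76, SE 0.098, adjusted p = 1.4e-07 in limma), beside 2.34 ± 0.162 FPKM in dcp5-1 and 2.49 ± 0.416 FPKM in Col-0 at 0 min (interaction 1.82, SE 0.14, limma adjusted p = 2.44e-05). ORS1 (AT2G41230), a relative of ARGOS that acts on organ size, had 11.2, 11.1 and 9.19 FPKM in dcp5-1, against 2.38, 2.31 and 1.51 FPKM in Col-0 (log2 difference 1.91, SE 0.14, adjusted p = 9.17e-07 in limma), beside 0.920 ± 0.104 FPKM in dcp5-1 and 0.542 ± 0.206 FPKM in Col-0 at 0 min (interaction 1.59, SE 0.19, limma adjusted p = 0.000346). PRE1 (AT5G39860), a small bHLH protein that promotes elongation, had 4.67, 4.58 and 5.12 FPKM in dcp5-1, against 11.8, 11.5 and 11.0 FPKM in Col-0 (log2 difference -1.10, SE 0.086, adjusted p = 1.76e-06 in limma), beside 25.6 ± 1.90 FPKM in dcp5-1 and 22.1 ± 2.78 FPKM in Col-0 at 0 min (interaction -1.31, SE 0.12, limma adjusted p = 0.000101). HEC1 and ORS1 were high in the mutant after salt, and PRE1 was low.

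In the other direction stood genes that were higher in the mutant at 0 min and lower, or less raised, at 60 min. PROPEP3 (AT5G64905), the precursor of a danger peptide, had 3.07, 3.09 and 3.95 FPKM in dcp5-1, against 5.76, 6.92 and 7.26 FPKM in Col-0 (log2 difference -0.81, SE 0.18, adjusted p = 0.0025 in limma), beside 18.7 ± 2.26 FPKM in dcp5-1 and 9.44 ± 3.23 FPKM in Col-0 at 0 min (interaction -1.76, SE 0.25, limma adjusted p = 0.000903). bHLH071 (AT5G46690) had 2.402, 2.87 and 2.55 FPKM in dcp5-1, against 7.62, 7.04 and 6.63 FPKM in Col-0 (log2 difference -1.17, SE 0.07, adjusted p = 2.85e-07 in limma), beside 9.78 ± 0.572 FPKM in dcp5-1 and 8.10 ± 0.339 FPKM in Col-0 at 0 min (interaction -1.41, SE 0.1, limma adjusted p = 1.72e-05). ABCG19 (AT3G55130), a membrane transporter, had 15.8, 17.77 and 17.1 FPKM in dcp5-1, against 37.7, 37.4 and 37.4 FPKM in Col-0 (log2 difference -1.11, SE 0.058, adjusted p = 8.95e-08 in limma), beside 4.22 ± 0.218 FPKM in dcp5-1 and 3.60 ± 0.218 FPKM in Col-0 at 0 min (interaction -1.29, SE 0.082, limma adjusted p = 9.85e-06). These genes lay below Col-0 after salt in every mutant sample, which follows from choosing genes without overlap at 60 min. The glutathione transferases GSTF6 and GSTF7 are adjacent and near-identical, so their values are uncertain. GSTF6 had 63.0, 53.4 and 59.6 FPKM in dcp5-1, against 81.1, 77.3 and 76.2 FPKM in Col-0 at 60 min, beside 55.1 ± 2.03 FPKM in dcp5-1 and 29.3 ± 2.55 FPKM in Col-0 at 0 min (interaction -1.30, SE 0.1, limma adjusted p = 2.86e-05). GSTF7 had 47.1, 44.1 and 43.9 FPKM in dcp5-1, against 31.4, 32.8 and 31.9 FPKM in Col-0 at 60 min, beside 98.4 ± 1.66 FPKM in dcp5-1 and 28.8 ± 2.08 FPKM in Col-0 at 0 min (interaction -1.26, SE 0.076, limma adjusted p = 9.8e-06).

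**Figure D5:**
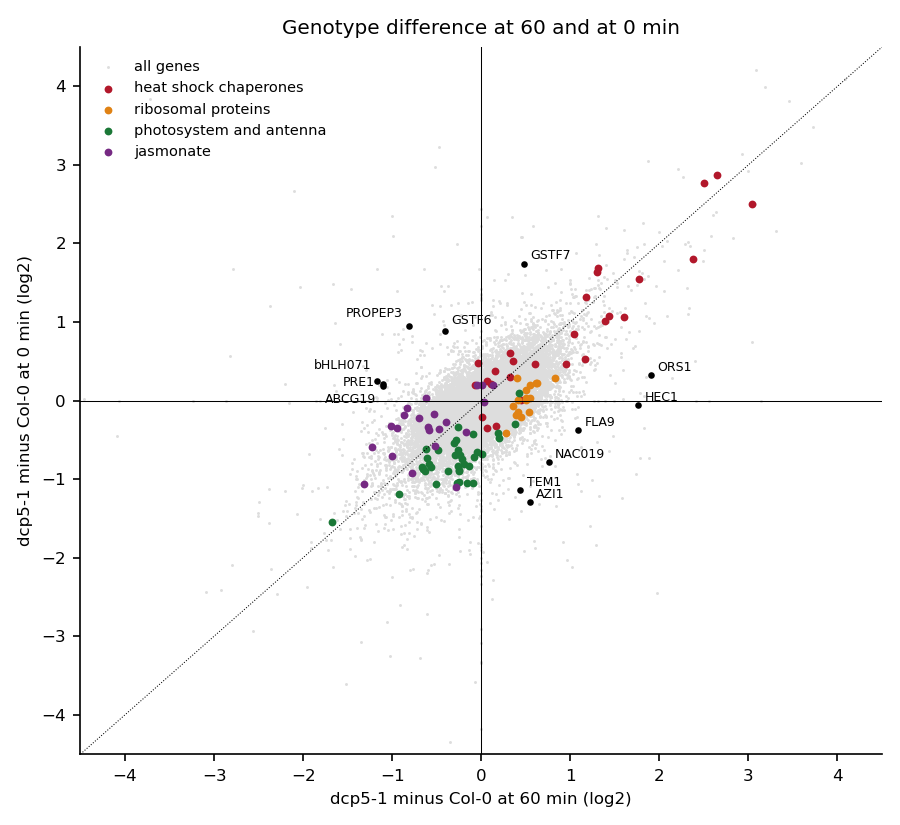
Difference between dcp5-1 and Col-0 at 60 min (log2, horizontal axis) against that at 0 min (log2, vertical axis) for the genes tested (grey), with chaperones in red, ribosomal proteins in orange, photosystem and antenna genes in green, jasmonate genes in purple and the 12 genes with the largest called interactions labelled in black; the dotted line marks equal differences, and 48 genes lie beyond the axes. Chaperones lie near the dotted line at the upper right, ribosomal protein genes to the right of it, and most photosystem genes below the horizontal axis.

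Differences at 60 min went with transcript length. When 18719 nuclear protein-coding genes were split into 3 groups by length, the shortest (6240 genes, median 993 nt) had a median log2 difference of 0.13. The middle group (6239 genes, median 1634 nt) had 0.03 and the longest (6240 genes, median 2537.5 nt) -0.16. Of the shortest genes 38.0% were called higher and 16.1% lower, and of the longest 15.8% were called higher and 44.0% lower. Spearman rho between length and difference was -0.293 at 60 min and -0.041 at 0 min across genes, which are not independent. Genes higher by at least 1 log2 unit had a median transcript of 1035 nt with 2 exons, those lower by as much 1539 nt with 3 exons, and all genes 1634 nt with 5 exons. GC content was alike, at medians of 41.1%, 41.2% and 41.5%. Of the largest changes, ESM1, ELIP1 and HSP17.6II and the fall of PRR9, CIPK20 and DCP5 kept their calls with the length trend removed.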

How the data were processed

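Per the submitters' processing notes, reads were handled with Bowtie and the TAIR10 build, and the authors deposited FPKM values for each sample; the quantification program, its annotation and any use of strand are, in the sources used here, not given. Values were taken as log2(FPKM + 1). The 19876 of 38088 loci averaging 1 FPKM or more in the 12 samples entered a limma 3.58.1 fit in R 4.3.3 with 4 group means and empirical Bayes with a trend (8 residual and 3.29 prior degrees of freedom). p-values were two-sided and adjusted by Benjamini-Hochberg over all loci tested, with calls at 0.05, and the script was tested on simulated data.

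The recovered read scale of each sample puts 99.0% to 99.5% of values under 10 reads within 0.1 read of a whole number, over 10863 genes. It depends on a fitted length correction, so a count test was not used. Exact zeros in FPKM tables can be failed estimates of short loci: 175 of the 19876 loci mixed 0 with at least 5 FPKM within 1 genotype at 60 min, 7 of them among the 482 past 1 log2 unit.

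Symbols, transcript lengths, exons and the 250-base windows came from RefSeq TAIR10.1 (37792 of the loci matched), and 589 of 622 list members had the list's symbol there. The members of the gene lists were chosen with earlier results of these data known. The genes named are DCP5, the 12 largest rises and 12 largest falls among called nuclear protein-coding genes with a symbol, no overlap and at least 5 FPKM in the higher genotype, the 6 largest interactions in each direction among genes also called at 60 min, and up to 4 members of each list in each direction. Further list members were named after their values were seen. Values of 1 list member are not reported here. The alternatives tried were another pseudocount, filter, scaling, variance model, fit to the 60 min samples alone, removal of length, GC and abundance trends, a replicate block and leaving out each sample.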

Additional observations from a re-analysis of the deposited data

Results flagged for a closer look

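Each gene below differed between dcp5-1 and Col-0 by a different amount at 60 min than at 0 min, by the limma interaction test with an adjusted p below 0.05. Values are the genotype difference at 60 min minus that at 0 min on the log2(FPKM + 1) scale. Causes of these differences were not tested.

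Among the genes raised most at 60 min, the interaction was 1.15 for ARGOS, 0.77 for OEP6, 0.66 for ELIP2, 0.58 for ELIP1, 0.55 for HSP17.6II and 0.37 for FLC, each with a larger rise at 60 min. Among the genes lowered most, it was -1.26 for PRR9, -0.82 for CYP71B26, -0.75 for PRR7, -0.72 for RPP5, -0.7 for CDEF1, -0.63 for RPP4 and -0.51 for CIPK20, each with a larger fall at 60 min. PRR9, RPP4 and RPP5 have close copies with which reads may be shared.

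The largest positive interactions were 1.84 for AZI1, 1.82 for HEC1, 1.59 for ORS1, 1.58 for TEM1, 1.54 for NAC019 and 1.47 for FLA9. AZI1, TEM1, NAC019 and FLA9 were called lower at 0 min and higher at 60 min. The largest negative interactions were -1.76 for PROPEP3, -1.41 for bHLH071, -1.31 for PRE1, -1.3 for GSTF6, -1.29 for ABCG19 and -1.26 for GSTF7. PROPEP3, bHLH071, ABCG19 and GSTF6 were called higher at 0 min and lower at 60 min, and GSTF7 was higher at both times.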

How the results depend on the processing

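Of 321 genes named or shown at 60 min, 251 kept their call and direction under each of the 24 alternatives that tested them, and 70 changed under at least 1, of which 56 lost a call, 11 gained one and 6 turned in sign. Of these 321, 55 had no value at a mean of at least 5 FPKM, and 43 of those kept their call under the others. The 36 genes chosen by size kept every call under each alternative that tested them, and ORS1 was not tested at a mean of at least 5 FPKM. The numbers past 1 log2 unit were 431 higher and 450 lower with a pseudocount of 0.1, and 109 and 94 with 5. Interactions numbered 2033 positive and 2077 negative with quantile normalization, 1590 and 1504 with trends of length, GC content and abundance removed, and 4408 and 2473 with array weights. Leaving out 1 sample gave 4720 to 5743 genes higher and 4738 to 5776 lower at 60 min, of which 231 to 257 and 242 to 259 past 1 log2 unit. It gave 3188 to 3715 higher and 4838 to 5582 lower at 0 min, and 2407 to 3907 positive and 1080 to 1854 negative interactions. Genes whose difference at 60 min turned in sign were DCL1 (0.032 without the length trend and 0.042 without all 3 trends), EIF4G (0.044 and 0.116), GUN5 (0.11 and 0.006), EIFISO4E (-0.008) and CAM2 (-0.042) without all 3 trends, and COR47 (-0.003) with quantile normalization. The causes were not tested. The fit to the 60 min samples alone kept 10471 of the 10831 calls (96.7%). A fit to the 60 min samples alone gives no value at 0 min or for the interaction.

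Replicate numbers did not pair the samples: deviations of same-numbered dcp5-1 and Col-0 samples at 60 min correlated at r = -0.0355, -0.103 and -0.0445. With the replicate number as a block, 5368 genes were higher and 5327 lower, of which 239 and 244 past 1 log2 unit, and among named genes HAI2 and PAD4 lost their calls and LSM6B gained one.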

Other observations

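Several loci outside the rule for named genes had large differences at 60 min and were picked after their values were seen. AT3G05845, annotated as other RNA, had 65.2, 54.6 and 73.6 FPKM in dcp5-1, against 0.519, 0 and 0 FPKM in Col-0. AT3G07365, also annotated as other RNA, had 159, 162 and 165 FPKM in dcp5-1, against 20.5, 18.24 and 16.4 FPKM in Col-0. AT1G07887, of the same class, had 0.0683, 0 and 0.213 FPKM in dcp5-1, against 18.3, 24.2 and 20.02 FPKM in Col-0. AT1G70820, a putative phosphoglucomutase, had 2.03, 1.81 and 2.06 FPKM in dcp5-1, against 16.3, 15.8 and 15.3 FPKM in Col-0. AT2G46670, the copy related to PRR9, had 3.03, 3.15 and 3.70 FPKM in dcp5-1, against 19.9, 18.5 and 18.1 FPKM in Col-0, and AT2G05510, related to GRP9, had 143, 166 and 141 FPKM in dcp5-1, against 20.3, 27.8 and 23.9 FPKM in Col-0.

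Some loci were listed at 0 in every sample of 1 genotype at 60 min and at 5 FPKM or more in every sample of the other. The nuclease gene AT3G29631 had 7.89, 9.29 and 7.25 FPKM in dcp5-1 and was listed at 0 in Col-0, as were the pseudogenes AT2G11410 and AT4G08093. MIR852 and AT5G15745 were listed at 0 in dcp5-1, and AT5G15745 had 24.0 to 46.3 FPKM in Col-0. AT3G29631 and AT2G11410 were also at 0 in every Col-0 sample at 0 min, and MIR852 in every dcp5-1 sample at 0 min. Zeros also occurred in Col-0 at 0 min, where samples ranged from 0 to 15.5 FPKM for MIR852 and from 0 to 41.1 FPKM for AT5G15745. AT4G08093 was not at 0 in every Col-0 sample at 0 min, nor AT5G15745 in every dcp5-1 sample.

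A list of all genes with a ribosomal protein product name, made after the values were seen, had 226 of 282 tested members higher at 60 min, 10 lower and a median of 0.46 (182 higher and 14 lower with trends of length, GC content and abundance removed), beside 72 higher and 44 lower at 0 min. Nuclear genes past 1 log2 unit that have a chromosome in the reference were spread over the chromosomes. They made up from 2.05% of tested genes on chromosome 3 to 2.72% on chromosome 2. The ABA-responsive core ACGTGG or ACGTGT was in the windows of 50 of 213 genes higher by at least 1 log2 unit, of 55 of 214 lower by as much (25.7%) and of 17.3% of all genes.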
